A study of Mus musculus with 38 samples.

Results

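Expression of Ubd, Cxcl9, Cxcl10 and Cxcl11 was examined in mouse mammary tumors after chemotherapy and along tumor progression. These 4 genes, of 28784 gene names on the array, were chosen because earlier results from the same arrays had them rising in residual tumors and falling from adenoma to carcinoma. Values of those groups are therefore given as a description, without a test. In the values below, only Ubd and Cxcl9 were higher on average in residual than in untreated tumors by more than a log2 difference of 1, whereas Cxcl10 was nearly level and Cxcl11 was lower. The rise in residual tumors that the genes were chosen for thus did not hold for Cxcl10 and Cxcl11, while all 4 genes were lower on average in carcinoma than in adenoma.

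All tumors came from hyperplasias of female mice bitransgenic for MMTV-PyMT, a polyoma middle T oncogene whose MMTV promoter is not restricted to the mammary gland, and for actin-GFP. The hyperplasias were transplanted into cleared mammary fat pads of female FVB/n hosts 3 weeks of age. The chemotherapy experiment held 6 untreated tumors, 6 residual tumors taken 10 days after the first dose of docetaxel, doxorubicin and cyclophosphamide, and 4 relapsed tumors taken 10 days after dose 4. Treatment began 2 months after transplantation, and the deposited labels call the treated groups regressed and resistant. Relapsed tumors were therefore older outgrowths than residual tumors, so relapse, number of doses and outgrowth age cannot be told apart. No outgrowth age is given for the untreated tumors. The progression experiment held 5 adenoma arrays (outgrowths of 5 weeks), 6 of carcinoma (18 weeks), 6 of disseminated cells from pooled lungs of 3 to 6 mice with outgrowths of 18 weeks, and 5 of lung metastases taken 8 to 10 weeks after the primary tumor was removed. GFP-positive cells were sorted in every group, and an actin promoter marks any cell of donor origin, not only epithelium. The hosts were wild-type mice without GFP, so the sort was set to leave out their cells, including leukocytes. How fully it did so was not tested. Each array compared the sample (Cy5) with a universal mouse reference RNA (Cy3), so each level below is a log2 ratio of sample to reference, in which 0 stands for equal signals. Nothing in the labels says whether tumors of a group came from separate mice, so p-values measure the spread between these samples.

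Interferon gamma is made mainly by activated T and NK cells and acts through its receptor and the kinases Jak1 and Jak2 to induce Irf1 and a wide set of target genes. Cxcl9, Cxcl10 and Cxcl11 are secreted chemokines among those targets, and all 3 are ligands of the receptor Cxcr3 on activated T and NK cells. Cxcl10 also responds to type I interferon and to NF-kappaB. Ubd encodes FAT10, a ubiquitin-like modifier that is joined to proteins by the enzymes Uba6 and Ube2z, targets them to the proteasome and is induced by interferon gamma together with TNF. In tumors, these chemokines can be made by tumor cells as well as by macrophages and endothelium.

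Each gene was read by 1 probe, printed once on the array. In build mm7, as written in the array files, the Ubd probe lies on chromosome 17 from 35348129 to 35348188. The probes of Cxcl9 (chromosome 5, 92310412 to 92310471), Cxcl10 (92334002 to 92334061) and Cxcl11 (ends at 92348344 and 92348495) lie in order within 38084 bases on the minus strand. The reference table used here lists Cxcl11 as a transcribed pseudogene, and the probe was named by the array file alone.

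The promoters of 3 of the genes, the 250 bases before the start of each in the RefSeq table for GRCm38.p6, are shown because the genes were chosen as a set and the chemokines are neighbors. Each was searched on both strands for the interferon-stimulated response element (ISRE, GAAA and GAAA with a pair of any bases between), the gamma-activated site (GAS, TTCNNNGAA) and the NF-kappaB consensus, and capitals mark matches.
Ubd, chr17:37193642-37193891 (+): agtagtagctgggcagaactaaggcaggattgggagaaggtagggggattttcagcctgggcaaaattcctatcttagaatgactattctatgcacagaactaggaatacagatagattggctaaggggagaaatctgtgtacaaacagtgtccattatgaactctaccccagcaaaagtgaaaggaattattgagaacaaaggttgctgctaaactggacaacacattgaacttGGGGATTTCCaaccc
Cxcl9, chr5:92328080-92328329 (-): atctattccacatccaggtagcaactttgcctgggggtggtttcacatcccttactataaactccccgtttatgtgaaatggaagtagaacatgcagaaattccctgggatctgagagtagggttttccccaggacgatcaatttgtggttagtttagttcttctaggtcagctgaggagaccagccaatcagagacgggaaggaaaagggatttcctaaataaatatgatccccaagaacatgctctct
Cxcl10, chr5:92348890-92349139 (-): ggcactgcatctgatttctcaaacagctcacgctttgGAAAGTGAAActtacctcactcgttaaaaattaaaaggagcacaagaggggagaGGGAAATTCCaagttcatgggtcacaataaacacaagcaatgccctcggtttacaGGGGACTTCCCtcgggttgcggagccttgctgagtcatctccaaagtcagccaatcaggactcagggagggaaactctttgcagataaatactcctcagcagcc
The Cxcl10 window held an ISRE match, 213 to 204 bases before the start, and NF-kappaB matches at 159 to 150 bases and, as overlapping matches on both strands, at 104 to 94 bases. The Ubd window held an NF-kappaB match 15 to 6 bases before the start. These letters were not found in the Cxcl9 window, and no GAS match was found in any of the 3. Of all 32851 windows of this length in the table, 2.98% held an ISRE match, 7.02% a GAS match and 7.25% an NF-kappaB match.

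The sorted cells were checked against marker genes. Genes of mammary epithelium (Krt8, Epcam, Elf5 and 7 others) averaged 4.47 ± 0.19 (log2 ratio, SD, n = 6) in tumors without treatment. The average was 4.61 ± 0.21 (SD, n = 6) in residual tumors and 4.65 ± 0.20 (SD, n = 4) after relapse, with all 10 above background on every array. In the progression experiment the mean was 3.52 ± 0.60 (SD, n = 6) in carcinoma, 3.36 ± 0.23 (SD, n = 5) in adenoma, 3.22 ± 1.48 (SD, n = 5) in metastases and 1.89 ± 1.20 (SD, n = 6) in disseminated cells. The mean of 11 macrophage genes was highest in disseminated cells (4.03 ± 0.50), followed by metastases (3.06 ± 1.78), carcinoma (1.22 ± 1.75) and adenoma (0.52 ± 0.24). Carcinoma replicate 6 was unlike its group. Its correlation with the rest of the carcinomas had a median of 0.760, where theirs were 0.939 to 0.958. It had a macrophage mean of 4.71 against −0.05 to 0.92 in the others, and an epithelial mean of 2.38 against 3.32 to 3.91. Its label was kept, and differences of the 4 genes against carcinoma are given with and without it, while those of the list genes include it. Correlations with the own group were about as low in disseminated replicates 6 (0.711) and 4 (0.776) and in metastases replicate 4 (0.776).

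In the chemotherapy experiment, Ubd separated all 3 groups. Its log2 ratio was 1.40, 1.87, 2.38, 3.32, 1.52 and 3.19 in untreated tumors (lowest 1.40, median 2.12, highest 3.32), between 3.58 and 5.95 in residual tumors (median 4.69), and 0.22, 0.34, 0.93 and 1.01 in relapsed tumors. Every residual tumor lay above every untreated tumor and every relapsed tumor below, so the order was residual, untreated, relapsed. The means were 4.76 ± 0.95 (SD, n = 6) for residual, 2.28 ± 0.83 (SD, n = 6) for untreated and 0.63 ± 0.40 (SD, n = 4) for relapsed tumors. Residual tumors thus stood 5.59-fold above untreated tumors (log2 difference 2.48, or 1.62 from processed signals), and relapsed tumors stood 17.6-fold below residual tumors (−4.14), the largest fall of all 28784 genes in that comparison. Groups did not overlap, with the first group higher, for 0.577% of all genes between residual and untreated tumors and, with it lower, for 0.983% between relapsed and residual tumors. Since these groups chose the genes, nothing is read from those shares or from the rank of the fall.

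Cxcl9, a Cxcr3 ligand that is induced mainly by interferon gamma, followed the same order with overlap. It ran from 1.26 to 3.30 in untreated tumors (median 2.83), from 2.95 to 5.24 in residual tumors (median 4.01), and was 0.81, 0.90, 1.60 and 1.54 in relapsed tumors. Residual replicate 6 (2.95) lay within the range of untreated tumors and the other residual tumors above it, while all relapsed tumors lay below all residual ones. The mean was 4.05 ± 0.83 (SD, n = 6) in residual against 2.53 ± 0.88 (SD, n = 6) in untreated tumors, a log2 difference of 1.52 (0.93 from processed signals), and was 1.21 ± 0.42 (SD, n = 4) in relapsed tumors.

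Cxcl10 and Cxcl11 did not follow Ubd into residual tumors. Cxcl10 ran from 0.88 to 3.82 in untreated tumors (median 2.87) and from 1.53 to 3.40 in residual tumors (median 2.78), which overlapped almost entirely, and was −0.55, 0.71, 2.12 and 0.22 in relapsed tumors. Its means were 2.52 ± 1.16 (SD, n = 6), 2.61 ± 0.72 (SD, n = 6) and 0.62 ± 1.12 (SD, n = 4), so residual and untreated tumors differed by 0.09, less than the spread within either group, and by −0.24 to 0.35 with any replicate left out. Cxcl11 was 4.17, 3.72, 2.61, 1.0, 0.87 and 1.69 in untreated tumors, from 0.81 to 2.28 in residual tumors (median 1.16), and −0.13, 0.30, 0.70 and 0.31 in relapsed tumors. Untreated replicates 1 to 3 carried the high values, and the other untreated tumors lay within the range of residual tumors. The Cxcl11 mean had the order untreated (2.34 ± 1.39, SD, n = 6), residual (1.31 ± 0.51, SD, n = 6), relapsed (0.30 ± 0.34, SD, n = 4), with a log2 difference of −1.04 between residual and untreated tumors. Leaving out untreated replicate 1 moved it to −0.67, by more than 1.5 times. Relapsed and residual tumors differed by −1.01, but by −0.013 once slide entered the fit as a fixed block, and by −2.23 from processed signals. Under the slide block the difference between residual and untreated tumors was −2.16, and on slide 2, the only slide with both groups, it was −3.15 for Cxcl11 and 4.46 for Ubd (2 residual tumors, 1 untreated).

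**Figure D1:**
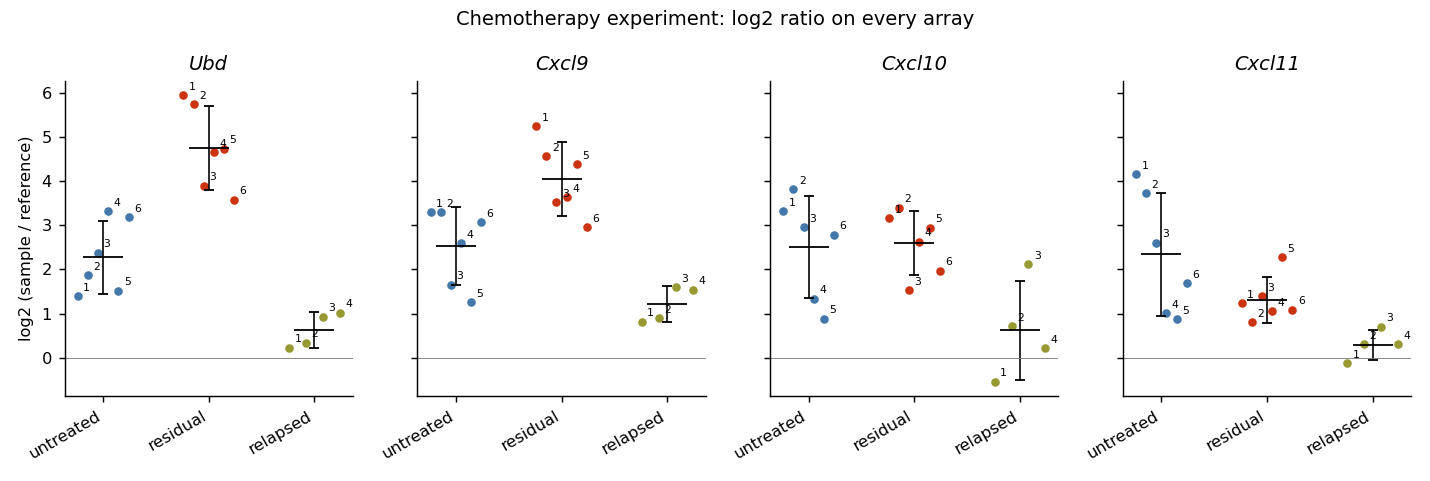
Log2 ratio of sample to reference (vertical axis) for each gene in 6 untreated, 6 residual and 4 relapsed tumors. Points are arrays numbered by replicate, and bars show the mean and SD. Ubd in the 6 residual tumors sits between 3.58 and 5.95, above every other tumor, whereas Cxcl11 is highest in untreated replicates 1 to 3.

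Whether expression in relapsed tumors fell below that of untreated tumors was tested, since relapsed tumors had no part in the choice of the genes, although the untreated tumors had. All 4 genes were lower on average, and none was called, which took a 2-fold change and an adjusted p under 0.05. Ubd was 3.14-fold lower (log2 difference −1.65, 95% interval −2.66 to −0.65), with an adjusted p of 0.329 by limma over all genes, and differed by −1.09 with slide as a fixed block. Cxcl9 differed by −1.32 (−2.29 to −0.35, limma adjusted p = 0.436), Cxcl10 by −1.89 (−3.14 to −0.64, adjusted p = 0.374) and Cxcl11 by −2.05 (−3.21 to −0.89, adjusted p = 0.305). Unadjusted p-values by limma lay between 0.0018 and 0.011. Of all genes, 0.00347% were called in this comparison (1 gene, higher in relapsed tumors). All 4 relapsed tumors lay below all 6 untreated tumors for Ubd and Cxcl11, as they did for 0.58% of genes.

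The signals behind the ratios differed among the genes. In the chemotherapy experiment the sample channel was well above background on all 16 arrays for Ubd, Cxcl9 and Cxcl10 and on 15 for Cxcl11, with relapsed replicate 1 the exception. The reference channel was well above background on all 16 arrays for Cxcl10, on 13 for Cxcl11, on 12 for Ubd and on only 1 for Cxcl9. The sample signal alone gave similar differences between residual and untreated tumors, 2.73 for Ubd, 1.46 for Cxcl9, 0.07 for Cxcl10 and −0.78 for Cxcl11. In the progression experiment, the reference signal of Ubd was 439 to 1484 in adenoma, where the sample signal was 24354 to 170856, and at most 167 in the other groups, although the reference RNA was the same. The reference signal of Cxcl9 was 137 to 544 in adenoma and 60 to 76 in carcinoma, but reached 293 in disseminated cells, within the adenoma range. A brighter reference gives a lower ratio. From the sample signal alone, carcinoma was below adenoma by 6.55 for Ubd, against 3.76 from the ratios.

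**Figure D2:**
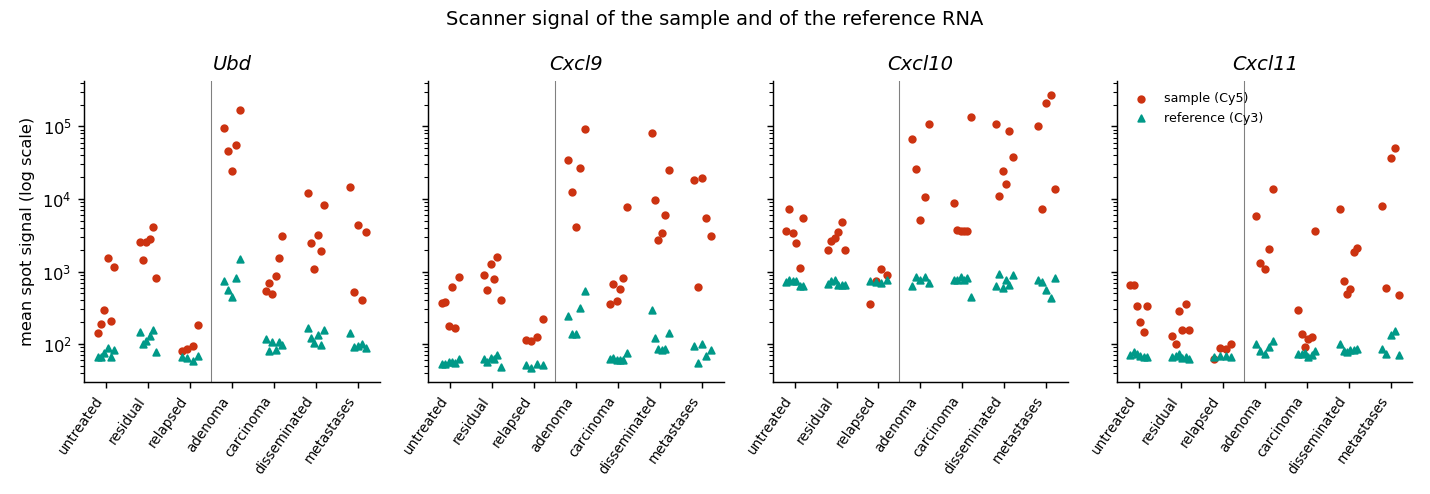
Scanner signal (mean of the spot, log axis, background not subtracted) of the sample (red circles) and of the reference RNA (green triangles) on every array, with the chemotherapy groups left and the progression groups right of the line. The reference signal of Ubd is between 439 and 1484 in adenoma and at most 167 in every other group.

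Genes around the 4 members were taken from lists by role, written from general knowledge but with earlier results of these data known. All p-values were adjusted over all genes. The interferon gamma targets, which hold guanylate-binding proteins, immunity-related GTPases and genes of the immunoproteasome, exceeded their level in untreated tumors in 22 of 22 cases in residual tumors, with a median log2 difference of 1.18 against −0.0037 over all genes. Of these, 9 were called, where 0.101% of all genes were. With slide as a fixed block only 1 gene on the whole array was called in this comparison, so most of these calls were lost. Among the called targets the largest differences were those of Gbp6 (2.33, limma adjusted p = 0.0039), Gbp4 (1.98, adjusted p = 0.0176) and Iigp1 (1.81, adjusted p = 0.0298). In relapsed tumors all 22 were lower than in residual tumors, with a median of −1.82, and 17 were called, against 0.205% of all genes. Tgtp1 changed by −3.31 (limma adjusted p = 0.0058), Gbp6 by −2.93 (adjusted p = 0.00079) and Iigp1 by −2.80 (adjusted p = 0.0013). Between relapsed and untreated tumors no gene of the list was called (median −0.59, 21 of 22 lower), and Gbp5 (−1.24) and Tgtp1 (−1.05) had the largest differences. These are the genes whose rise in residual tumors was known when the lists were written.

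Of the signaling genes themselves, 13 of 14 were measured and none was called between residual and untreated tumors (median 0.38). Among them, 1 had a limma adjusted p under 0.05 with a change of less than 2-fold. Ifng, the cytokine, was 1.07 ± 0.91 (SD, n = 6) in residual, 0.39 ± 0.20 (SD, n = 6) in untreated tumors and 0.13 ± 0.13 (SD, n = 4) in relapsed tumors, and well above background on 5, 3 and 0 arrays. Socs1, a feedback inhibitor, differed by 0.98 (limma adjusted p = 0.297) and Irf1 by 0.90 (adjusted p = 0.123), while the receptor chains Ifngr1 and Ifngr2 differed by 0.06 each. Between relapsed and residual tumors Irf1 fell by 1.63 (limma adjusted p = 0.0037). All 13 genes were lower there, and 2 were called, where 0.205% of all genes were. Targets of type I interferon were higher in residual tumors in 22 of 22 cases (median 0.66) with no call, led by Irf7 (1.17) and Oasl2 (1.13), and lower in relapsed than residual tumors in 22 of 22 (median −0.93), again with no call, Oasl2 at −1.74 and Ifi44 at −1.73.

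Receptors and enzymes that act with the members gave no call in these tumors. Among 6 genes of the chemokine axis none was called between any of the chemotherapy groups. The receptor Cxcr3 had means of 0.37 in residual, 0.02 in untreated and −0.39 in relapsed tumors. Dpp4, a protease that trims these chemokines, differed by −0.49 and the proteoglycan Sdc1 by 0.44 between residual and untreated tumors, and Cxcr3 by −0.76 and the scavenger receptor Ackr3 by −0.55 between relapsed and residual tumors. Among the 8 measured genes of ubiquitin-like conjugation none was called either. The FAT10 enzymes Uba6 and Ube2z differed by 0.23 and 0.02 between residual and untreated tumors, and Uba7 and Ube2l6, which conjugate the related modifier ISG15, by 0.75 each. Uba7 differed by −1.27 between relapsed and residual tumors (limma adjusted p = 0.0588). The 12 other CXC chemokines had no call, with a median of −0.26 between residual and untreated tumors, where Cxcl3 (−1.20) and Cxcl5 (−1.03) differed most, and of −0.05 between relapsed and residual tumors (Cxcl3 0.67, Cxcl16 −0.58). The 12 genes of NF-kappaB and TNF had none either, with medians of 0.27 (Tnf 0.87, Icam1 0.57) and −0.53 (Icam1 −1.27, Tnf −1.13).

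Marker genes of immune cells gave no call between the chemotherapy groups. The 14 T and NK cell genes had a mean of −0.04 ± 0.13 (SD, n = 6) in residual, −0.18 ± 0.10 (SD, n = 6) in untreated tumors and −0.27 ± 0.07 (SD, n = 4) in relapsed tumors, with a median of 9, 7 and 6.5 genes well above background. Cd8b1, the gene of the list with the brightest signal, stood at −0.10, 0.04 and 0.06 in that order. Of the list, 11 of 14 genes had a higher mean in residual tumors than without treatment, and 10 of 14 were lower in relapsed than in residual tumors, where Cd3d (−0.95, limma adjusted p = 0.0805) and Cd3g (−0.69, adjusted p = 0.0532) differed most. The part of T and NK cells in the levels of the 4 genes was not tested. The 11 macrophage genes, of which Cd14 was brightest, had means of 0.53 ± 0.84, 1.19 ± 1.24 and 0.29 ± 0.67 in the same order, with 10 of 11 lower in residual than in untreated tumors (median −0.74). The spread among untreated tumors was wide. Their macrophage means were 2.24, 2.62 and 2.04 in replicates 1 to 3 and −0.02, 0.02 and 0.22 in replicates 4 to 6, and replicates 1 to 3 were also those with the highest Cxcl11 (2.61 to 4.17, against 0.87 to 1.69) and Cxcl10 (2.96 to 3.82, against 0.88 to 2.79). For Cxcl9 these replicates held 3.30, 3.30 and 1.66, against 1.26 to 3.08 in the others, so the ranges overlapped. For Ubd they held 1.40, 1.87 and 2.38, against 1.52 to 3.32 in the others, and replicate 1 was the lowest of the group. In RNA of sorted bulk cells, fewer cells of a type and less RNA per cell cannot be told apart, and the part of macrophages in these levels was not tested.

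**Figure D3:**
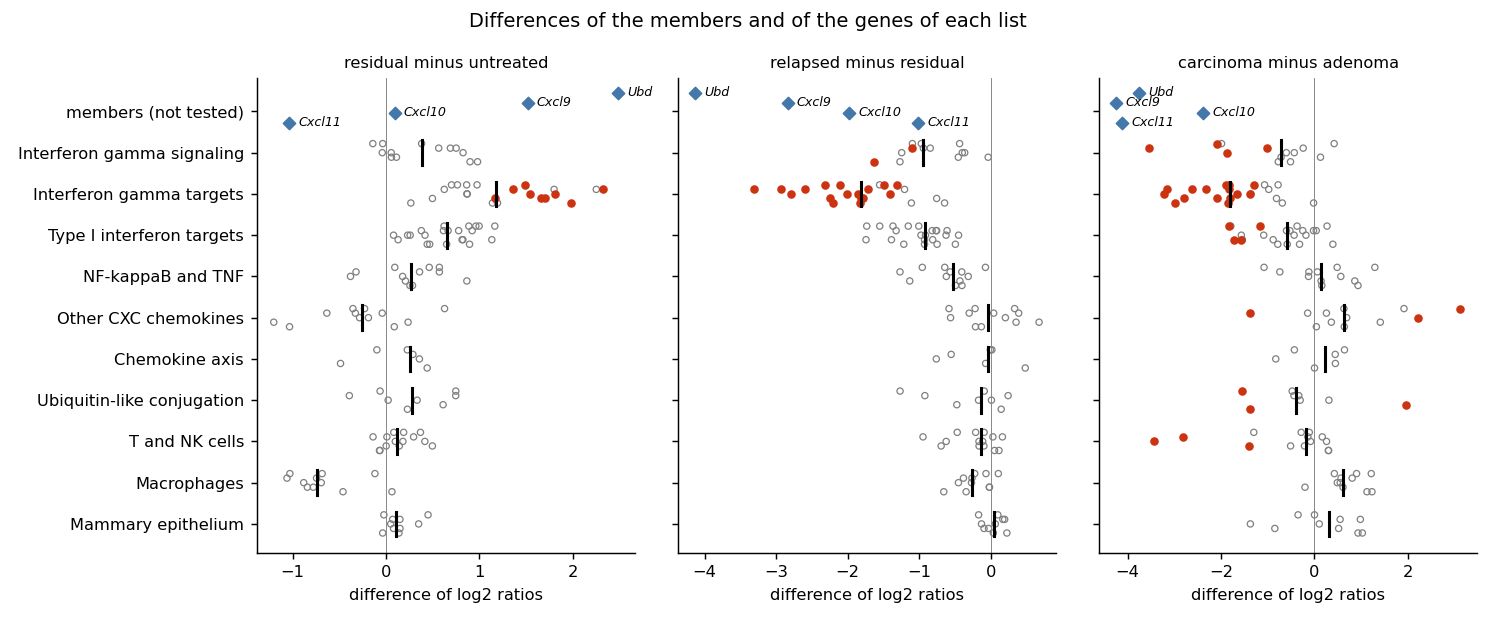
Difference of log2 ratios (horizontal axis) for the 4 members (blue diamonds, not tested) and the genes of 10 lists in 3 comparisons. Red points are called genes, open points are not, and black bars are list medians. Interferon gamma targets lie above 0 in 22 of 22 cases in residual against untreated tumors, as Ubd and Cxcl9 do, whereas Cxcl11 lies at −1.04.

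In the progression experiment all 4 genes were high in adenoma. Adenoma arrays varied in detection, with 48.4% (replicate 4) to 75.5% (replicate 5) of spots well above background. In carcinoma the share was 67.5% to 76.7%, and the part of detection in the differences was not tested. Ubd was 5.49, 5.28, 6.01, 5.73 and 5.07 in adenoma, between 0.87 and 2.99 in carcinoma (median 1.59), between 2.59 and 4.75 in disseminated cells (median 3.60), and 4.57, 0.61, 2.98, 0.55 and 3.0 in metastases. All adenomas exceeded all other samples, and the 3 other groups overlapped. Means were 5.52 ± 0.37 (SD, n = 5), 1.76 ± 0.87 (SD, n = 6), 3.66 ± 0.86 (SD, n = 6) and 2.34 ± 1.73 (SD, n = 5), so the order was adenoma, disseminated cells, metastases, carcinoma, of which metastases and carcinoma, at 0.58 apart, differed by less than the spread within metastases. Carcinoma lay 13.5-fold below adenoma (log2 difference −3.76), and −4.00 without carcinoma replicate 6.

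Cxcl9 was also far lower in carcinoma than in adenoma. It was 5.84, 6.74, 6.71, 6.45 and 5.88 in adenoma and between 1.19 and 4.35 in carcinoma (median 1.63), with no overlap. The difference was −4.25, and −4.70 without carcinoma replicate 6. It was −5.27 from the sample signal alone, less than the −6.55 of Ubd, and −1.96 from processed signals. In disseminated cells it ran from 4.10 to 6.17 (median 5.34), partly within the adenoma range, and in metastases it was 5.27, 1.32, 5.07, 3.46 and 2.82. Means had the order adenoma (6.32 ± 0.44, SD, n = 5), disseminated cells (5.21 ± 0.72, SD, n = 6), metastases (3.59 ± 1.64, SD, n = 5) and carcinoma (2.08 ± 1.19, SD, n = 6).

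Cxcl10 and Cxcl11 depended most on single samples. Cxcl10 was 5.33, 3.97, 3.24, 3.91 and 5.71 in adenoma, 0.95 to 2.26 in carcinoma replicates 1 to 5 and 5.99 in replicate 6. It ran from 2.95 to 5.47 in disseminated cells (median 4.13), and was 4.94, 1.14, 6.50, 7.77 and 2.09 in metastases. Carcinoma overlapped with adenoma only through replicate 6, and metastases spanned nearly the whole range of the experiment. Its means were 4.49 ± 2.83 (SD, n = 5) in metastases, 4.43 ± 1.04 (SD, n = 5) in adenoma, 4.19 ± 0.96 (SD, n = 6) in disseminated cells and 2.06 ± 1.99 (SD, n = 6) in carcinoma, of which the first 3 lay within 1 SD of each other. Carcinoma was below adenoma by −2.37, and by −3.16 without replicate 6. Cxcl11 was 4.63, 3.38, 4.93, 5.38 and 5.77 in adenoma, −0.11 to 0.85 in carcinoma replicates 1 to 5 and 3.32 in replicate 6, and was not well above background in carcinoma replicates 2 and 3. In disseminated cells it ran from 1.80 to 4.36 (median 2.72) and in metastases it was 4.17, 1.02, 5.67, 5.71 and 0.87. Adenoma and carcinoma did not overlap, although replicate 6 lay just below the lowest adenoma. The difference was −4.11, and −4.63 without replicate 6. Means were 4.82 ± 0.91 (SD, n = 5), 0.71 ± 1.33 (SD, n = 6), 2.81 ± 0.88 (SD, n = 6) and 3.49 ± 2.40 (SD, n = 5).

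Adenoma and carcinoma lay on different slides that were scanned on different days, so stage and slide cannot be told apart for that pair. Groups without overlap, with carcinoma lower, made up 4.54% of all genes. Metastases and carcinoma shared slides 1 to 3. There, metastases exceeded carcinoma for Cxcl10 by 3.29 on slide 1 and 4.72 on slide 2 and were lower by −2.39 on slide 3, which held carcinoma replicate 6 and metastases replicate 2. The same sign changes held for Cxcl9, Cxcl11 and Ubd, with 1.40, 1.67 and −2.18 for Ubd. Disseminated cells and adenoma shared slides 4 to 6, where Ubd was lower in disseminated cells by −1.66, −2.43 and −1.74 and Cxcl11 by −1.71, −2.15 and −2.21. For Cxcl10 the differences were −0.19, −0.32 and 0.37, and for Cxcl9 −0.49, −1.89 and −1.15. Ubd did not overlap between these groups, as held with disseminated cells lower for 5.13% of all genes.

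**Figure D4:**
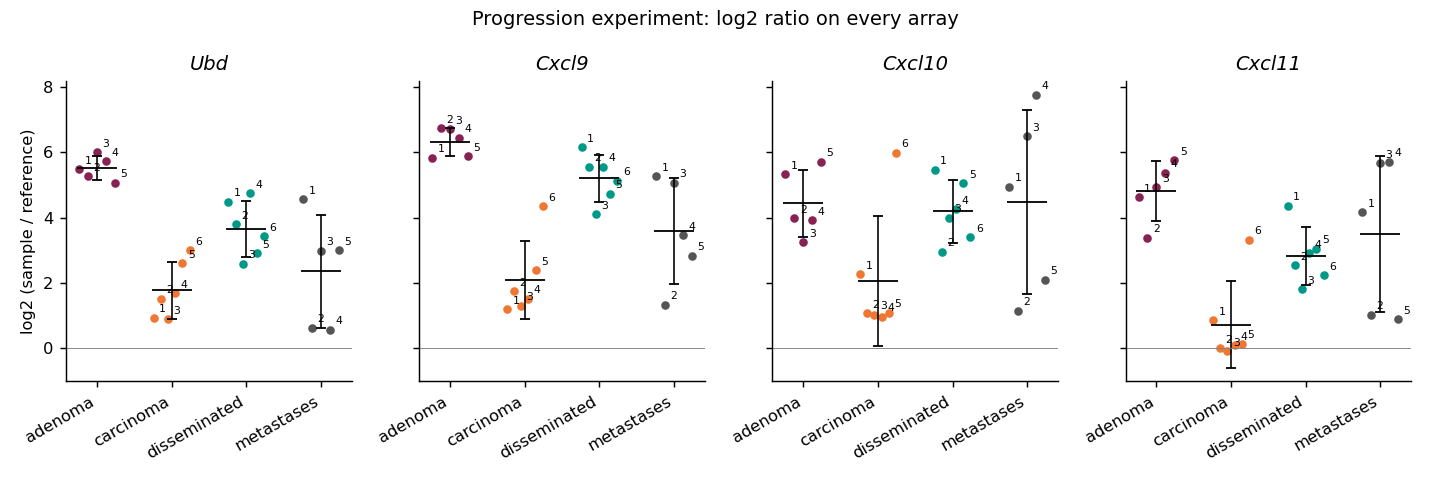
Log2 ratio of sample to reference (vertical axis) for each gene by stage, for adenoma (n = 5), carcinoma (n = 6), disseminated cells (n = 6) and metastases (n = 5). Points are arrays numbered by replicate, and bars show the mean and SD. Carcinoma replicate 6 lies at 5.99 for Cxcl10 while the other carcinomas lie at 2.26 or less, and metastases range from 1.14 to 7.77.

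Metastases and disseminated cells, neither of which had a part in the choice of the genes, were compared by test. None of the 4 genes was called, against 7.11% of all genes. Ubd was lower in metastases by −1.31 (95% interval −2.59 to −0.04, limma adjusted p = 0.171) and Cxcl9 by −1.62 (−2.93 to −0.31, adjusted p = 0.0966), or by −0.78 from processed signals. Without metastases replicate 1 both were called, at −1.87 (limma adjusted p = 0.0392) and −2.04 (adjusted p = 0.0467). Cxcl10 differed by 0.30 (−1.91 to 2.52, limma adjusted p = 0.898) and Cxcl11 by 0.68 (−1.10 to 2.45, adjusted p = 0.673), intervals that leave room for differences of more than 2-fold in either direction. With a metastasis sample left out, Cxcl10 ran from −0.52 (without replicate 4) to 1.14 (without replicate 2) and Cxcl11 from 0.12 (without replicate 4) to 1.33 (without replicate 5). Ubd was at −0.87 without replicate 4 and Cxcl9 at −1.05 without replicate 2. These groups lay on different slides and scan days, which cannot be told apart from the groups. Macrophage genes were lower in metastases than in disseminated cells in 10 of 11 cases (median −1.23, none called). T and NK cell genes were lower in 11 of 14 cases (median −0.38, 2 called). Epithelial genes were higher in 9 of 10 cases (median 1.38, 1 called), and the part of these cells in the differences was not tested.

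Interferon gamma targets were lower in carcinoma than in adenoma in 22 of 22 cases, with a median of −1.81 against 0.07 over all genes. Of these, 15 were called, where 3.3% of all genes were, and Iigp1 (−3.22, limma adjusted p = 0.0016), Tgtp1 (−3.15, adjusted p = 0.0019) and Gbp4 (−2.99, adjusted p = 0.00055) fell most. The members were chosen on this comparison and the lists were written with earlier results known. The counts of the lists are thus not independent of that choice. In the signaling list 4 of 13 were called lower, among them Ifng itself by −3.54 (limma adjusted p = 0.0052), Ciita, the activator of MHC class II genes, by −2.08 (adjusted p = 0.0069) and Stat2 by −1.86 (adjusted p = 0.0011). Ifng stood at 4.20 ± 1.72 (SD, n = 5) in adenoma, 2.58 ± 1.47 (SD, n = 6) in disseminated cells, 2.12 ± 1.19 (SD, n = 5) in metastases and 0.67 ± 0.50 (SD, n = 6) in carcinoma, the same order of means as Ubd. Of the T and NK cell genes 3 of 14 were called lower in carcinoma, Nkg7 (−3.44), Cd3d (−2.81) and Cd3g (−1.39). With or without a call, 10 of the 14 were lower and 4 were higher (median −0.17). The higher ones, none called, were Cd3e (0.26), Cd4 (0.30), Cd8b1 (0.17) and Klrb1c (0.30). None of the 11 macrophage genes was called (median 0.61). The T and NK cell mean was 0.21 ± 0.13 (SD, n = 6) in carcinoma against 0.87 ± 0.30 (SD, n = 5) in adenoma, and its part in the levels of the 4 genes was not tested. Among type I interferon targets 4 of 22 were called lower, led by Oas2 (−1.83), Mx2 (−1.72) and Oasl2 (−1.56).

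Of the 12 other CXC chemokines, 3 were called between carcinoma and adenoma, where 3.3% of all genes were. Cxcl1 (3.13, limma adjusted p = 0.0144) and Cxcl2 (2.22, adjusted p = 0.045), which attract neutrophils, were up-regulated in carcinoma over adenoma, whereas Cxcl17 (−1.37, adjusted p = 0.0323) was down-regulated. In the conjugation list Uba6, the activating enzyme of FAT10, was lower by −1.37 (limma adjusted p = 0.0114), Uba7 by −1.56 (adjusted p = 0.00042) and the autophagy receptor Sqstm1 was higher by 1.97 (adjusted p = 0.0166), while Ube2z differed by 0.31. Cxcr3 differed by −0.83 (adjusted p = 0.253) and none of the 6 genes of its list was called. None of the 12 genes of NF-kappaB and TNF was called between carcinoma and adenoma, with Nfkbia at 1.3 and Birc3 at −1.08. In disseminated cells, 6 of the 12 were called higher than in adenoma (10.5% of all genes called) and 5 higher than in carcinoma (11.6%), as were 7 and 6 of the 12 other CXC chemokines. In metastases 4 of each list were called higher than in carcinoma (10.1%).

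Both interferon and macrophage genes were called between disseminated cells or metastases and the primary tumors. Between disseminated cells and adenoma, where 10.5% of all genes were called, 9 of 22 interferon gamma targets were called lower and 1 higher. Iigp1 was lower by −2.60 and Igtp by −2.05, and Cd274, which encodes the checkpoint ligand PD-L1, was higher by 2.70. Ubd, Cxcl9, Cxcl10 and Cxcl11 differed by −1.86, −1.11, −0.25 and −2.01, with Ubd at −0.74 and Cxcl9 at 0.19 from processed signals, and Ubd at −4.57 from the sample signal alone. With Aquantile or no normalization between arrays Cxcl9 was at 0.25, Cxcl10 at 0.16 and Cxcl11 at −0.74. The difference of Cxcl10 also ran from −0.54 without adenoma replicate 3 to 0.07 without adenoma replicate 5, so its direction was not settled. Macrophage genes were called higher in 9 of 11 cases, led by Lyz2 (6.68), Mrc1 (4.85) and Csf1r (4.78), and neutrophil genes in 3 of 5 (Retnlg 5.75, S100a9 4.69, Csf3r 4.27). Against carcinoma (11.6% of genes called), a comparison in which group cannot be told apart from slide and scan day, the members were higher by 1.90, 3.13, 2.13 and 2.10, and by 2.14, 3.59, 2.91 and 2.63 without carcinoma replicate 6 (Cxcl11 by 3.42 from processed signals), with 5 of 22 interferon gamma targets called higher, Cd274 by 3.77, Gbp4 by 1.47 and Gbp2 by 1.46, as were 7 of 11 macrophage genes, 5 of 14 T and NK cell genes (median 0.94) and 4 of 5 neutrophil genes, while 3 of 10 epithelial genes were called lower. The part of these cells in the levels of the members was not tested. Between metastases and carcinoma, where 10.1% of all genes were called, 9 of 22 targets were called higher, led by Gbp6 (2.75), Gbp3 (2.69) and Tap1 (2.64), and the members differed by 0.58, 1.51, 2.43 and 2.78, or 0.83, 1.97, 3.22 and 3.30 without carcinoma replicate 6. Ubd was at 0.03 without metastases replicate 1 and above 1 without replicate 2 or 4, and Cxcl10 was at 1.61 without replicate 4. Macrophage genes were higher in metastases than in carcinoma in 11 of 11 cases (median 1.74), with Lyz2 (4.32) and Mrc1 (2.68) called, and their part in these differences was not tested. Irf1 was up-regulated in metastases over both carcinoma (1.5) and disseminated cells (1.35).

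Among metastases, the samples with high macrophage genes were also those high in Cxcl9, Cxcl10 and Cxcl11. Metastases replicates 1, 3 and 4 had macrophage means of 3.53, 4.30 and 5.07, Cxcl9 at 5.27, 5.07 and 3.46, Cxcl10 at 4.94, 6.50 and 7.77 and Cxcl11 at 4.17, 5.67 and 5.71. Replicates 2 and 5 had macrophage means of 1.14 and 1.29, Cxcl9 at 1.32 and 2.82, Cxcl10 at 1.14 and 2.09 and Cxcl11 at 1.02 and 0.87. Ubd did not follow this order. Replicate 4, the highest in macrophage genes, had the lowest Ubd of the group (0.55), and replicate 5, among the low ones, had 3.0. Adenomas had macrophage means of 0.09 to 0.66 beside the highest Ubd levels. Their means of Cxcl9 (6.32) and Cxcl11 (4.82) were also the highest of the progression groups, with Cxcl10 at 4.43. Residual replicate 2 had a macrophage mean of 1.83 beside the highest Cxcl10 (3.40) and the lowest Cxcl11 (0.81) of its group. The part of macrophages in these values was not tested.

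**Figure D5:**
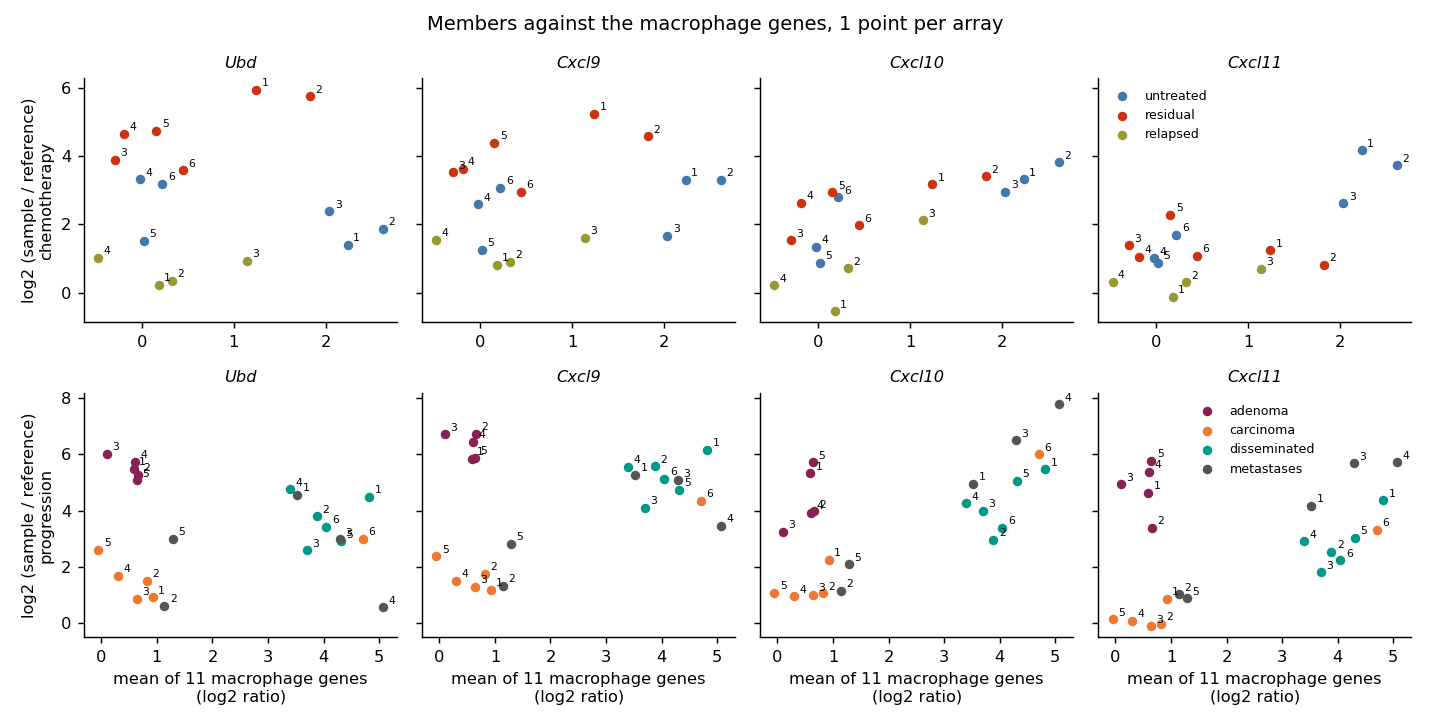
Log2 ratio of each gene (vertical axis) against the mean log2 ratio of 11 macrophage genes (horizontal axis), with 1 point per array, numbered by replicate, in the chemotherapy (top) and progression (bottom) experiments. Metastases replicate 4 has the highest macrophage mean (5.07) with Cxcl10 at 7.77 and Ubd at 0.55, while adenomas lie at 0.66 or less with Ubd above 5. In adenomas Cxcl9 also lies between 5.84 and 6.74, Cxcl10 between 3.24 and 5.71 and Cxcl11 between 3.38 and 5.77.

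Over the arrays, Ubd was most alike to Cxcl9, and Cxcl11 to Cxcl10. In the chemotherapy experiment (16 arrays) Pearson's r was 0.89 between Ubd and Cxcl9 and 0.73 between Cxcl10 and Cxcl11, but 0.07 between Ubd and Cxcl11. In the progression experiment (22 arrays) the same pairs had 0.91, 0.87 and 0.61. After the group means were removed, Ubd and Cxcl9 had 0.57 and 0.78, and Cxcl9 and Cxcl10 had 0.66 and 0.61. Ubd and Cxcl11 then had −0.32 and 0.27, and Cxcl10 and Cxcl11 had 0.67 and 0.91. These correlations describe arrays that share a group structure and, on some slides, a hybridization. Of 12780 genes well above background on at least 8 of 16 chemotherapy arrays, with the 4 members left out of the ranking, those most like Ubd were Gbp2b (0.94), Ifi47 (0.94), Iigp1 (0.93), Gbp6 (0.92) and Tnfrsf14 (0.92), of which the first 4 are interferon-inducible GTPases. With the group means removed, these 5 genes had 0.71, 0.64, 0.60, 0.61 and 0.65. Those most like the mean of the 3 chemokines were H2-Aa (0.96), H2-Ab1 (0.93), Cd74 (0.93), Serpina3g (0.91) and Irf8 (0.91), of which the first 3 encode the MHC class II chains and the invariant chain. With the group means removed they had 0.90, 0.89, 0.86, 0.92 and 0.86. In the progression experiment (15641 genes, members left out again) Ubd was most like AW112010 (0.88), Mastl (0.87), Rasl2-9 (0.87), Tgtp1 (0.84) and Ifi47 (0.83), and the chemokines most like H2-Eb1 (0.94), H2-DMa (0.91), H2-Aa (0.89) and A530032D15Rik (0.87). With the group means removed, the genes named for Ubd had 0.78, 0.69, 0.66, 0.71 and 0.73. Those named for the chemokines had 0.92, 0.90, 0.81 and 0.88.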

How the data were processed

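RNA of 38 samples was measured on Agilent two-color arrays of 45018 spots, of which 43379 carry no control. The authors deposited spot intensity values (mean signal and median local background of each channel) from Agilent Feature Extraction 10.7, and their own normalized log2 ratios (sample over reference, as comparison with each array showed), used here as an alternative. No dyes were swapped. RNA of the progression experiment had been amplified in an additional round, so each experiment had its own normalization and fit.

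Starting from the intensities, limma 3.58.1 in R 4.3.3 was used for background correction (normexp, offset 50), loess within each array and quantile normalization across an experiment, after the study's methods, which do not name the offset. Control and outlier-flagged spots were left out of the loess fit. Probes were named through RefSeq accessions for 23075 probes and by the array files for 18099, and each of 28784 gene names was read from its brightest probe on average. All groups of an experiment entered 1 limma fit without covariates, with Benjamini-Hochberg adjustment over all genes, and calls required a 2-fold change (log2 of 1) with an adjusted p under 0.05. The number of arrays limits the precision.

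The members and the lists were chosen with earlier results of these data known. Lists were interferon gamma signaling, interferon gamma targets, type I interferon targets, the chemokine axis, other CXC chemokines, ubiquitin-like conjugation, NF-kappaB and TNF, and markers of T and NK cells, macrophages, dendritic cells, B cells, neutrophils, endothelium, fibroblasts and mammary epithelium (163 genes, 160 on the array). Named were the members, up to 3 called genes of a list with the largest change (without calls, the 2 largest differences), genes of the signaling, axis and conjugation lists, and the 5 genes most like Ubd and the chemokines in each experiment, of which 1 gene is not reported here. Alternatives were a normexp offset of 0, processed signals, median centring, Aquantile or nothing across arrays, the authors' log2 ratios, removal of dim genes, probe means, the slide (fixed or random), a replicate block, only the groups compared, an equal-variance test without moderation, each replicate left out and, added after seeing the data, the sample channel alone. The procedure was tested on simulated data.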

Additional observations from a re-analysis of the deposited data

Results flagged for a closer look

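A set was 1 gene in 1 group of 4 to 6 arrays, and sets that share arrays are not independent. Of 28 such sets examined for a sample far from the others, 2 held one, where chance marks about 1 independent set in 20. Both were carcinoma replicate 6. Cxcl10 stood there at a log2 ratio of 5.99, with the nearest carcinoma at 2.26, a gap of 0.741 of the range of the group. Cxcl11 stood there at 3.32, with the nearest at 0.85, a gap of 0.719 of the range. Carcinoma replicate 6 was also the highest carcinoma for Ubd (2.99) and Cxcl9 (4.35), and its macrophage mean was 4.71, against at most 0.92 in the other carcinomas.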

How the results depend on the processing

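Of 304 values of the members in comparisons that were described, 291 moved by less than the SD within groups under the alternatives other than left-out replicates, as did 268 of 268 with a replicate left out. The scanner software's processed signals gave a difference of 1.62 for Ubd between residual and untreated tumors and −2.23 for Cxcl11 between relapsed and residual tumors, −2.65 for Ubd and −1.96 for Cxcl9 between carcinoma and adenoma, and −0.74 for Ubd and 0.19 for Cxcl9 between disseminated cells and adenoma. Cxcl9 also turned to 0.25 between disseminated cells and adenoma with Aquantile normalization and to 0.25 without normalization between arrays. Slide as a fixed block gave 3.33 for Ubd and −2.16 for Cxcl11 between residual and untreated tumors, and −0.013 for Cxcl11 between relapsed and residual tumors. The sample channel alone gave −6.55 and −4.57 for Ubd in carcinoma and in disseminated cells against adenoma. The causes were not tested. None of the tested differences changed its call in 100 values under the alternatives other than left-out replicates. With a replicate left out, 2 of 84 became called, both without metastases replicate 1, and over all left-out replicates the difference between metastases and disseminated cells ran from −1.87 to −0.87 for Ubd and from −2.04 to −1.05 for Cxcl9.

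The number of genes called between residual and untreated tumors, 29, was 11 from processed signals, 14 at a normexp offset of 0, 5 by the equal-variance test and 1 once slide was a fixed block, and ran from 8, without untreated replicate 3, to 29 with a replicate left out. Between relapsed and residual tumors, 59 became 34 with slide as a fixed block and 24 by the equal-variance test, and 29 to 58 with a replicate left out, the lowest without relapsed replicate 1. Between relapsed and untreated tumors, 1 became 0 with a normexp offset of 0, slide as a fixed block, the replicate block or the equal-variance test, 2 with Aquantile or no normalization between arrays or the mean of a gene's probes, 3 with processed signals, the deposited log2 ratios or dim genes left out, and 0 to 4 with a replicate left out. Processed signals gave 1436 called genes between carcinoma and adenoma. The equal-variance test gave 1920 between disseminated cells and adenoma and 161 between metastases and disseminated cells, where the groups compared alone gave 699 and left-out replicates 1365 to 3174, the highest without disseminated replicate 6.

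Whether replicate numbers pair the samples was examined by correlation, which cannot exclude a pairing. Deviations of same-numbered arrays from their group means correlated at a median of 0.04 in the chemotherapy and −0.02 in the progression experiment, with 6 of 14 and 8 of 31 pairs over 0.1. Arrays with different numbers had medians of 0.008 and −0.009, with 20 of 70 and 45 of 150 pairs over 0.1. The replicate block gave 11 called genes between residual and untreated tumors in place of 29 and changed no call of the members. Slide as a fixed block could not be fitted across the slides of carcinoma and adenoma, carcinoma and disseminated cells, or metastases and disseminated cells. Cxcl9 is limited by its reference signal in the chemotherapy experiment.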

Other observations

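Cell types outside the comparisons above also differed along progression. Endothelial genes were called higher in disseminated cells than in adenoma in 4 of 6 cases (median 1.39), where 10.5% of all genes were called, and in carcinoma than in adenoma in 1 of 6 (Emcn, 1.88, limma adjusted p = 0.0039), where 3.3% were. Fibroblast genes were lower in carcinoma than in adenoma in 6 of 6 cases, with Col1a1 (−2.06) and Pdgfra (−1.06) called. Dendritic cell genes were called higher in disseminated cells than in carcinoma in 2 of 8 cases and B cell genes in 2 of 5, against 11.6% of all genes called. None of these lists held a called gene between the chemotherapy groups. In metastases, 9 of 22 targets of type I interferon were up-regulated over disseminated cells, where 7.11% of all genes were called, led by Ifit2 (2.65), Rsad2 (2.61) and Irf7 (2.56), with 21 of 22 higher and a median of 1.09, and 10 of 22 over carcinoma (median 1.20), where 10.1% were called, while Ubd and Cxcl9 stood lower on average in metastases than in disseminated cells. Neutrophil genes were called lower in metastases than in disseminated cells in 4 of 5 cases, led by Retnlg (−3.24) and S100a8 (−3.11).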
